A study of Homo sapiens with 4 samples.

Results

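The gene set comprised 50 genes that license replication origins and run the replication fork, chosen by symbol and by what their proteins do, and each matched a single Ensembl row among the 60671 genes of the count table. It was followed through RNA-seq of SK-N-BE(2), an established MYCN-amplified human neuroblastoma line. Control cells carried a control hairpin (shNC, 2 libraries) and knockdown cells carried a hairpin against METTL14 (shMETTL14, 2 libraries). METTL14 is the RNA-binding partner of METTL3 in the complex that writes N6-methyladenosine on RNA. The paper describes stable hairpin lines made with lentiviral pLKO.1 vectors and puromycin, but does not name RNA-seq among their uses. The labels do not say which METTL14 hairpin was sequenced. Nothing in the labels says that the libraries of a group came from separate cultures, so p-values here measure only the spread between these libraries, which may be technical.

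A chromosome replicates once per cycle because the process is split in time. In G1 the origin recognition complex, CDC6 and CDT1 load rings of MCM2 to MCM7 onto DNA, and geminin then blocks CDT1 so that no origin is loaded again. At S phase entry the kinase CDC7 with its activator DBF4, together with CDC45 and GINS, turns the loaded rings into moving helicases, which primase, the replicative polymerases, the clamp PCNA and its loader follow. Many of these genes are transcribed by E2F factors in late G1, and rapidly cycling neuroblastoma cells express them strongly.

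The libraries held 18925786 to 19886214 counts assigned to genes. METTL14 itself had 753 and 754 counts with the control hairpin and 303 and 321 with its own. That was 41.7% of the control level after scaling by library size. All 50 replication genes passed the filter on low counts, and the lowest value of any of them in any library was 175 counts, so that none was limited by detection.

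More of the replication genes rose than fell after METTL14 knockdown, and most of the changes were small. In edgeR's quasi-likelihood test with Benjamini-Hochberg adjustment over 16309 genes, 36 of the 50 passed an adjusted p of 0.05, 30 of them higher and 6 lower in shMETTL14. Across all genes tested 52.5% passed, 27.2% higher and 25.3% lower, so the shares among the replication genes, 60% higher and 12% lower, stood above and below that background. Under upper quartile scaling the split of the replication genes was 26 higher and 10 lower, against 21.8% and 30.4% of all genes (52.2% in all). DESeq2 called 28 of the 50, with 24 higher and 4 lower, against 33.9% of all genes, 19.2% higher and 14.7% lower. The median log2 fold change (shMETTL14 over shNC) was 0.22 over the 50 genes and -0.00095 over all genes tested, whose middle 50% ran from -0.33 to 0.27. Groups did not overlap in CPM (read counts normalised to TMM-scaled library size) for 44 of the 50, with shMETTL14 above in 34 and below in 10, where 75.5% of all genes tested were separated, 38.0% above and 37.6% below. With 2 libraries against 2, an exact permutation test of a single gene cannot go below p = 0.333, so single-gene calls rest on the edgeR fit, which shares its estimate of spread across genes. In bulk RNA, a larger share of cells in S phase and more transcript in each such cell cannot be told apart. After METTL14 knockdown the paper reported slower growth, weaker EdU staining (its mark of proliferating nuclei) and a longer G0-G1 phase. It proposes that loss of METTL14 holds back the cell cycle. How the higher replication transcripts relate to those assays was not tested.

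**Figure D1:**
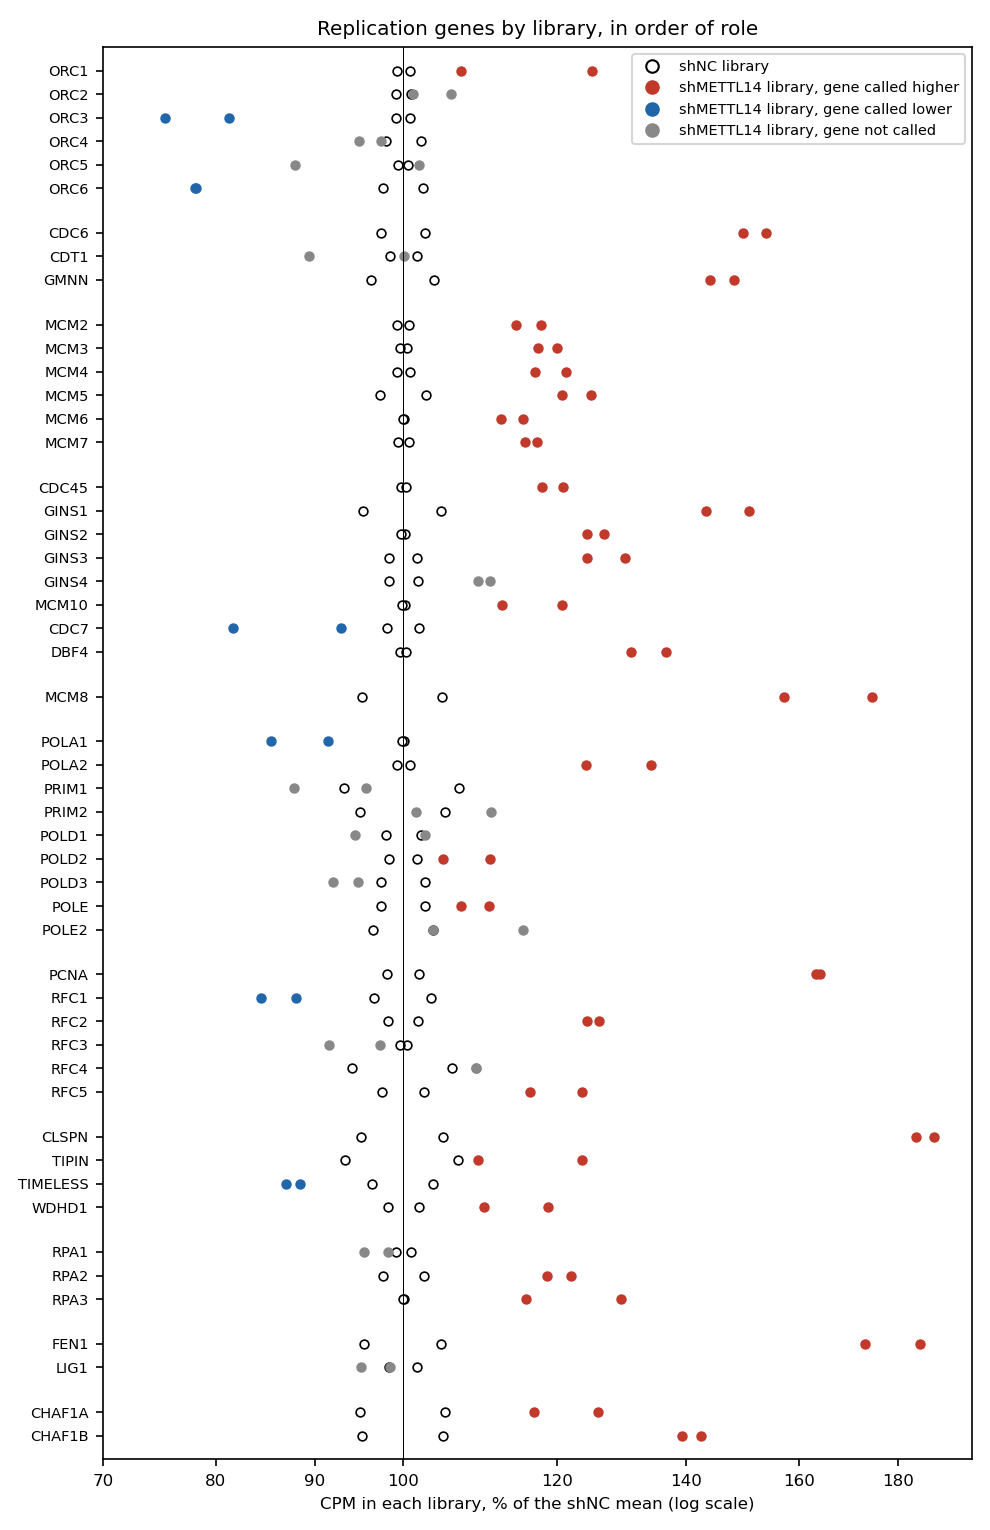
Level of each of the 50 replication genes in each library, in CPM as a percentage of that gene's shNC mean on a log axis, grouped by role. Open circles are shNC libraries and filled circles shMETTL14 libraries, red where the gene was called higher (30 genes), blue where it was called lower (6) and grey where it was not called (14).

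Of the 50 genes, 5 were called with a change of at least 1.5-fold and all 5 were higher: CLSPN, FEN1, MCM8, PCNA and CDC6. Among all genes tested a larger share, 18.8%, passed that rule: 7.44% were called at least 1.5-fold higher and 11.4% at least 1.5-fold lower. The most negative log2 fold change of the set was -0.36, for ORC6. The other 31 called genes moved by less than 1.5-fold, a size that was resolved because the standard error of the log2 fold change had a median of 0.0545 over the set.

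The start regions of these genes were searched for E2F-type words, since the factors that read them drive this gene class. RefSeq (GRCh38.p14) gave windows of 300 bases, from 250 before to 50 after a gene's start, for 44 of the 50 genes, all but RPA2, RPA3, POLD3, MCM4, MCM5 and GINS4. The words were TTTCCCGC, TTTCGCGC, TTTGCCGC and TTTGGCGC, with their reverse complements GCGGGAAA, GCGCGAAA, GCGGCAAA and GCGCCAAA. At least 1 word stood in 22 of the 44 genes (50%) and in 40% of their 55 windows, against 4.79% of 16437 windows of tested genes and 3.31% of 35116 windows in all. The 30 matches fell in 26 places, because words on opposite strands overlapped in 4 of them. The words are set in capitals below with 9 bases on each side, read along each gene's own strand. The 4 MCM ring subunits with a window are shown first, then 4 of the genes called higher by more than the ring, then genes that carry a word and fell or were not called.
MCM2: tgaaccactTTTCGCGCgaaacctgg
MCM3: ttcggaagtTTTCGCGCcggggtgga
MCM6: ttggtcaggTTTGGCGCgaaatctcc
MCM7: ggggcgacgTTTCGCGCcaatttcgg
CLSPN: tctggctggGCGGGAAAgcaagaaca
PCNA: gcgtcagggGCGGGAAAaggcgtgcg
CDC6: ccattcggaTTTGGCGCgagcgcggc
GMNN: tgggtcggtTTTGGCGCgctctcact
ORC3: cgagggcgcGCGGGAAAtcccgagtg
CDC7: gcagttcctTTTCCCGCcccccttcg
CDT1: agggcgcccGCGGGAAAtttggcggg
RFC3: ttggagctcGCGGGAAAacttgtctc

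These 26-base stretches lie at chr3:127598404-127598429 (plus strand) for MCM2, chr6:52284730-52284755 (minus) for MCM3, chr2:135876517-135876542 (minus) for MCM6 and chr7:100101390-100101415 (minus) for MCM7. Those of the next genes lie at chr1:35769967-35769992 (minus) for CLSPN, chr20:5126665-5126690 (minus) for PCNA, chr17:40287877-40287902 (plus) for CDC6 and chr6:24775324-24775349 (plus) for GMNN. The last 4 lie at chr6:87590114-87590139 for ORC3, chr1:91501035-91501060 for CDC7, chr16:88803745-88803770 for CDT1 and chr13:33818085-33818110 for RFC3, all on the plus strand. All 4 subunits of the MCM2 to MCM7 ring with a window held a word, and in MCM3 and MCM7 one began 4 and 9 bases before the start. Of the 22 genes with a word, 15 were called higher, 3 lower and 4 not called (median log2 fold change 0.22), and of the 22 without one 11 were called higher, 3 lower and 8 not called (median 0.12). FEN1, among the genes that rose most, held none of these words in its window, and ORC6, which fell most, held none either. These matches are descriptions of letters in a window, and binding was not measured.

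Within origin recognition, the subunits went different ways. ORC1 to ORC6 form the complex that marks origins. ORC6, its smallest subunit, gave 2133 and 2147 counts in shNC and 1677 and 1646 in shMETTL14, or 110 ± 3.61 against 85.6 ± 0.0873 CPM (SD, n = 2 libraries here and below). Both shMETTL14 libraries lay below both controls, and the change on the log2 scale came to -0.36 ± 0.047 (SE, edgeR adjusted p = 1.4e-06). ORC3 gave 1455 and 1421 counts against 1085 and 1152, a log2 fold change of -0.35 ± 0.0552 (edgeR adjusted p = 1.3e-05), again with no overlap. ORC1, the subunit whose level swings with the cell cycle, moved the other way, with 830 and 785 counts against 1012 and 852. Its log2 fold change was 0.22 ± 0.0723 (edgeR adjusted p = 0.0158), but without shMETTL14 replicate 1 the value was 0.10 and did not pass. The call was also lost with all libraries kept, under upper quartile scaling (adjusted p = 0.092), library size alone (0.0522) and DESeq2 (0.114).

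The remaining subunits were not called. ORC2 had a log2 fold change of 0.05, ORC4 of -0.06 and ORC5 of -0.08, and the edgeR adjusted p of these 3 lay between 0.41 and 0.479. Per length of merged exon, the 6 subunits summed to 83.2 ± 1.2 CPM per kb in shNC and 75.1 ± 2.03 in shMETTL14, 90.3% of control. The makeup of that sum shifted, with ORC6 going from 30.5% to 26.4% of it, ORC3 from 24.0% to 20.8%, ORC1 from 15.7% to 20.2% and ORC2 from 12.2% to 14.0%. The size of such shares depends on the length used for each gene. In shNC, ORC6 stood 3.56 times above ORC4 per merged exon length and 6.80 times per length of the longest coding transcript.

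CDC6 and geminin rose while CDT1 did not pass the test. CDC6, the ATPase that completes the ring loader, gave 1401 and 1419 counts in shNC and 2175 and 2081 in shMETTL14. That was 152% of control, at a log2 fold change of 0.60 ± 0.0487 (edgeR adjusted p = 9.5e-10). GMNN, which encodes geminin, gave 1223 and 1266 counts against 1797 and 1817, 146% of control and a log2 fold change of 0.55 ± 0.0521 (edgeR adjusted p = 1.3e-08). CDT1, the MCM chaperone that geminin inhibits, gave 1493 and 1389 counts against 1290 and 1420, so that the groups overlapped in CPM. Its log2 fold change was -0.08 ± 0.0566 (edgeR adjusted p = 0.255).

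The balance between inhibitor and loader transcripts therefore differed between the groups. On the scale of CPM per kb of exon, the ratio of GMNN to CDT1 was 1.10 and 1.23 in the shNC libraries and 1.88 and 1.72 in the shMETTL14 libraries, 154% of the control mean. For CDC6 to CDT1 the ratio rose from 0.588 to 0.946. Neither ratio overlapped between groups, but the gene pairs set against each other here and below were picked after the values were seen. That separation therefore carries no weight, and the ratios are given without a test.

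The helicase ring rose as a block. MCM2 to MCM7 make the hexamer that unwinds DNA at the fork, and all 6 genes were called higher with no overlap between groups, at a median log2 fold change of 0.23 and at 114% to 123% of control. MCM7 gave 7245 and 7051 counts in shNC and 8277 and 8256 in shMETTL14 (log2 fold change 0.22 ± 0.0379, edgeR adjusted p = 4.6e-05), and 8.94% of its exon length lies under AP4M1 on the other strand. MCM3 gave 5311 and 5063 counts against 6240 and 5992, a log2 fold change of 0.25. MCM2 gave 4336 and 4105 against 4980 and 4754, at 0.22 on the log2 scale. These were the subunits with the highest levels per length.

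The other subunits lay in the same narrow band. MCM4 had 4464 and 4221 counts in shNC against 5276 and 5002 in shMETTL14 (log2 fold change 0.25). MCM5 had 2204 and 2237 against 2784 and 2642 (0.30, the largest of the ring). MCM6 had 2992 and 2871 against 3298 and 3329 (0.19, the smallest). The edgeR adjusted p of the 6 genes lay between 1.0e-05 and 7.5e-04. Under upper quartile scaling their log2 fold changes were smaller, from 0.12 (MCM6) to 0.23 (MCM5). Of all genes tested, 23.1% had a higher log2 fold change than MCM5 and 32.0% a higher one than MCM6 in the main fit. Each of the 6 was called under all 11 alternative settings.

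Per length the ring genes summed to 284 ± 0.119 CPM per kb in shNC and 333 ± 2.14 in shMETTL14, 117% of control. The proportions of the subunits moved little while the total rose. MCM7 made up 29.4% of the sum in shNC and 29.2% in shMETTL14, MCM3 25.6% and 25.9%, MCM2 15.5% and 15.4%, MCM6 12.8% and 12.4%, MCM4 11.2% and 11.4%, and MCM5 5.46% and 5.72%. MCM7 was highest and MCM5 lowest in both groups, by 5.38 times in shNC and 5.10 times in shMETTL14. The positions of MCM4 and MCM6 in this order depended on the gene model. They exchanged places when each count was divided by the longest coding transcript instead of merged exons. By that length MCM7 stood 3.69 times above MCM5 in shNC and 3.49 times in shMETTL14.

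**Figure D2:**
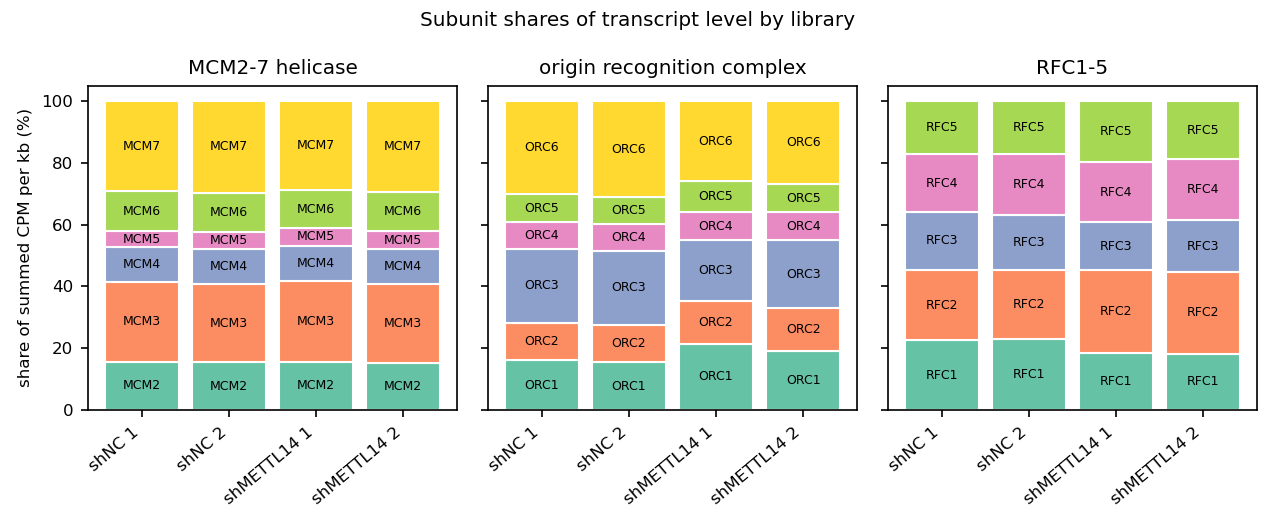
Share of each subunit in the summed transcript level of its complex (percent of summed CPM per kb of merged exon), in each of the 4 libraries, for the MCM ring, the origin recognition complex and RFC1 to RFC5. The MCM shares are nearly the same in every library, whereas ORC6 falls from 30.5% to 26.4% of the origin recognition complex and RFC1 from 22.7% to 18.3% of RFC.

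MCM8 stood apart from the ring. It is a relative of the MCM subunits that works with MCM9 in recombinational repair rather than in the hexamer. Its counts were 450 and 393 in shNC and 737 and 652 in shMETTL14, 166% of control (log2 fold change 0.73 ± 0.0841, edgeR adjusted p = 2.1e-07). Per length it was, after POLA2, the lowest of the 50 genes in shNC, at 2.80 CPM per kb.

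Of the 8 genes that switch the loaded ring on, 6 were called higher, 1 lower and 1 was not called. GINS1, a subunit of the GINS tetramer that holds CDC45 to the ring, changed most among them, with 950 and 832 counts in shNC and 1345 and 1256 in shMETTL14 (147% of control, log2 fold change 0.56 ± 0.0612, edgeR adjusted p = 1.1e-07). GINS2 had 1087 and 1039 counts against 1352 and 1303 (0.33), and GINS3 941 and 935 against 1170 and 1203 (0.35). GINS4, the remaining subunit, had 940 and 935 counts against 1042 and 1009. Its groups did not overlap, but its log2 fold change of 0.14 ± 0.0602 missed the threshold (edgeR adjusted p = 0.0583). CDC45 itself had 1109 and 1072 counts against 1322 and 1266 (0.26). MCM10, which helps the assembled helicase to move, had 1154 and 1104 against 1272 and 1343 (0.22), and without shMETTL14 replicate 2 its value was 0.18 and its edgeR adjusted p 0.0523.

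The kinase and its activator diverged. DBF4, the regulatory subunit, gave 1864 and 1804 counts in shNC and 2511 and 2369 in shMETTL14, 134% of control (log2 fold change 0.42 ± 0.0456, edgeR adjusted p = 8.6e-08). CDC7, the catalytic subunit, gave 1064 and 1061 against 989 and 855, 87.3% of control (-0.20 ± 0.066, edgeR adjusted p = 0.0165). The CDC7 call was lost without shMETTL14 replicate 2 (-0.10), without shNC replicate 2 (-0.16) and with DESeq2, so its size is less certain than that of DBF4. The ratio of DBF4 to CDC7 per kb was 1.36 and 1.32 in shNC and 1.97 and 2.15 in shMETTL14.

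Primase and the replicative polymerases showed no common direction. Of 9 genes, 3 were called higher, 1 lower and 5 were not called, with a median log2 fold change of 0.09, and their sum per kb was 121 ± 1.89 CPM per kb in shNC and 123 ± 3.14 in shMETTL14. POLA1, the catalytic subunit of polymerase alpha, which starts each new strand with primase, fell from 1847 and 1771 counts to 1657 and 1522 (-0.18 ± 0.0495, edgeR adjusted p = 0.00471). Without shMETTL14 replicate 2 its value was -0.12 and the call was lost, as it was with DESeq2 (adjusted p = 0.0819). POLA2, the accessory subunit of the same enzyme, had 185 and 175 counts against 224 and 238 (0.37 ± 0.119, edgeR adjusted p = 0.0126), and without that library it had 0.32 and was not called, nor was it with DESeq2 (adjusted p = 0.151). The level of POLA2 is uncertain, because 35.1% of its exon length is shared with another annotated coding gene on the same strand, AP000944.2.

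Polymerase epsilon copies the leading strand and polymerase delta the lagging strand. POLE, the catalytic subunit of epsilon, had 2495 and 2276 counts in shNC and 2644 and 2514 in shMETTL14 (0.12 ± 0.0453, edgeR adjusted p = 0.0276). POLD2, an accessory subunit of delta, had 3044 and 3023 against 3372 and 3134 (0.11 ± 0.0438, edgeR adjusted p = 0.0404). Both changes were small and fragile: the value of POLE was 0.09 without shNC replicate 2 and 0.10 without shMETTL14 replicate 1, that of POLD2 was 0.08 without shNC replicate 1 and 0.07 without shMETTL14 replicate 1, and none of these passed. Both calls were also lost under upper quartile scaling, library size alone, the filter of at least 10 counts in every library and DESeq2, and that of POLD2 without a filter. The catalytic subunit of delta, POLD1, had 687 and 633 counts against 624 and 667 (-0.02, edgeR adjusted p = 0.828). The others that were not called were POLD3 at -0.10, the primase subunits PRIM1 at -0.12 and PRIM2 at 0.09, and POLE2 at 0.13, and 21.6% of the PRIM1 exon length is shared with other coding genes.

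The sliding clamp changed far more than its loader. PCNA, the ring that tethers polymerases to DNA (chromosome 20, 5114953 to 5126626, minus strand, GENCODE 29 on GRCh38), gave 4100 and 4093 counts in shNC and 6739 and 6589 in shMETTL14. Its CPM went from 210 ± 5.69 to 343 ± 1.29, 164% of control, at a log2 fold change of 0.71 ± 0.0399 (edgeR adjusted p = 2.7e-12). PCNA had the highest level per length of the 50 genes in both groups, 143 CPM per kb in shNC and 233 in shMETTL14. RFC1, the large subunit of the loader that opens the clamp, fell from 3320 and 3413 counts to 2972 and 2803 (86.3% of control, -0.21 ± 0.045, edgeR adjusted p = 4.1e-04).

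The small loader subunits were mixed. RFC2 rose from 1112 and 1107 counts to 1404 and 1360 (0.33), and RFC5 from 1224 and 1237 to 1525 and 1410 (0.26). RFC4 had 1222 and 1322 counts against 1391 and 1368 (0.13 ± 0.0577, edgeR adjusted p = 0.0727), while without shNC replicate 2 it had 0.22 and was called. RFC3 had 1185 and 1129 against 1061 and 1108 (-0.08, edgeR adjusted p = 0.231). The 5 loader genes summed to 113 CPM per kb in shNC and 121 in shMETTL14, with RFC1 going from 22.7% to 18.3% of the sum and RFC2 from 22.7% to 26.7%. The ratio of PCNA to RFC1 per kb went from 5.56 to 10.5.

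**Figure D3:**
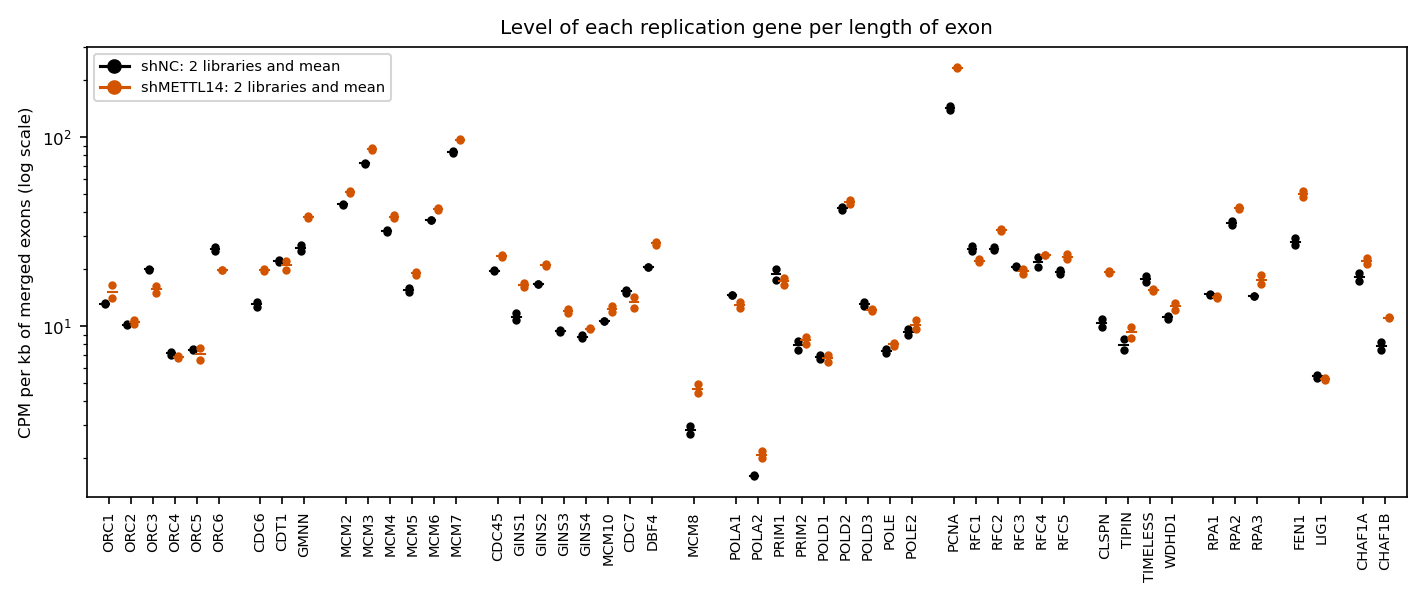
Level of each of the 50 replication genes in CPM per kb of merged exon (log scale), with both libraries of each group as points and their mean as a line, shNC in black and shMETTL14 in orange. PCNA has the highest level (143 and 233 CPM per kb) and POLA2 and MCM8 the lowest, and the MCM ring genes lie between 15.5 (MCM5) and 83.4 (MCM7) in shNC.

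Among the proteins that steady the fork, CLSPN showed the largest change of all 50 genes. CLSPN encodes claspin (chromosome 1, 35720218 to 35769967, minus strand), which passes the checkpoint signal from ATR to CHEK1 and keeps forks moving at full speed. It gave 1169 and 1019 counts in shNC and 2057 and 1981 in shMETTL14, or 55.9 ± 3.84 against 104 ± 1.5 CPM, 186% of control. On the log2 scale it rose by 0.89 ± 0.0535 (edgeR adjusted p = 8.0e-12). TIMELESS, whose protein works beside claspin at the fork, fell from 2120 and 1894 counts to 1748 and 1747 (87.7% of control, -0.19 ± 0.0488, edgeR adjusted p = 0.00246). The ratio of CLSPN to TIMELESS per kb was 0.593 and 0.578 in the shNC libraries and 1.27 and 1.22 in the shMETTL14 libraries.

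TIPIN, the obligate partner of TIMELESS, had 407 and 447 counts against 468 and 521. Its log2 fold change of 0.22 ± 0.0921 lay at the threshold (edgeR adjusted p = 0.0491), and without shNC replicate 1 it was 0.12 and without shMETTL14 replicate 2 0.14, neither of which passed. It was called under 3 of the 11 alternative settings. WDHD1, which couples polymerase alpha to the helicase, had 1384 and 1380 counts against 1525 and 1617 (0.19 ± 0.053, edgeR adjusted p = 0.00391), and 0.15 without shMETTL14 replicate 2, which was not called, nor was it with DESeq2 (adjusted p = 0.051).

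The single-strand binding trimer split by subunit. RPA2 rose from 1373 and 1385 counts to 1687 and 1612 (0.27 ± 0.0507, edgeR adjusted p = 1.3e-04), and RPA3 from 923 and 886 to 1049 and 1154 (0.29, edgeR adjusted p = 5.7e-04). RPA1, the large subunit that makes most of the DNA contact, had 1594 and 1558 counts against 1551 and 1481 and was not called (-0.05, edgeR adjusted p = 0.449). RPA2 and RPA3 each have annotated pseudogenes, as do PCNA and DBF4. A pseudogene is also named for each of ORC1, PRIM2, POLD2, RFC3, RFC5, TIPIN and FEN1. Reads shared with such copies may be assigned unevenly.

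In the joining of lagging-strand fragments, the nuclease rose and the ligase did not pass. FEN1, the flap endonuclease that trims the displaced end of each fragment (chromosome 11, 61792637 to 61797244, plus strand), gave 1317 and 1387 counts in shNC and 2348 and 2464 in shMETTL14. Its CPM went from 69.3 ± 4.5 to 124 ± 5.73, 179% of control (0.84 ± 0.0525, edgeR adjusted p = 1.5e-11), and 8.68% of its exon length lies under TMEM258 or FADS2. LIG1, the ligase that seals the nick FEN1 leaves, had 697 and 692 counts against 685 and 651 (-0.05, edgeR adjusted p = 0.614). The ratio of FEN1 to LIG1 per kb averaged 5.17 ± 0.215 in shNC and 9.57 ± 0.670 in shMETTL14.

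CAF-1 deposits histones behind the fork, and both of its subunits in the set were higher. CHAF1B had 840 and 733 counts in shNC and 1097 and 1103 in shMETTL14, 141% of control (0.49, edgeR adjusted p = 1.3e-06). CHAF1A, the large subunit, had 1641 and 1425 counts against 1934 and 1762 (0.28, edgeR adjusted p = 1.9e-04).

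Replication genes outside the set were called in both directions. Of 14 other origin firing and licensing genes, 7 were called higher and 2 lower, with a median log2 fold change of 0.11. Those that rose most were DONSON (0.50), which helps to bring GINS to the ring, LRWD1 (0.49), which binds the origin recognition complex, and RECQL4 (0.41). FZR1, an activator of the anaphase-promoting complex, was at -0.21 and SKP2, a ubiquitin ligase subunit, at -0.18. Of 25 other fork genes, 13 were called higher and 1 lower (median 0.17), led by POLE4 (0.64), a small subunit of polymerase epsilon, and the histone chaperones ASF1A (0.41) and ASF1B (0.37), while RNASEH2B, a subunit of ribonuclease H2, was at -0.24.

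**Figure D4:**
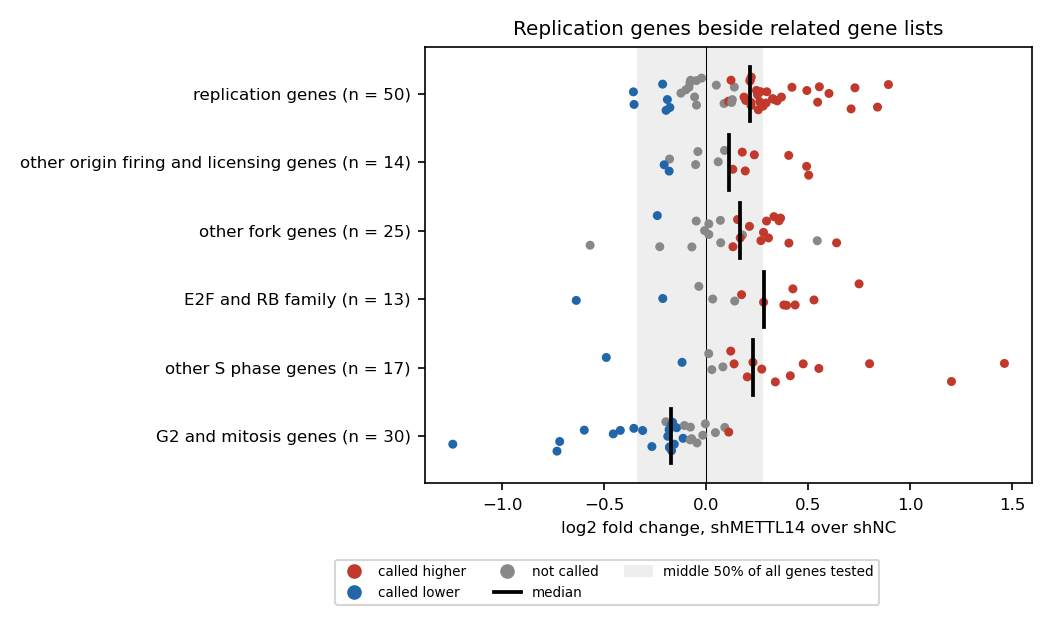
Log2 fold change (shMETTL14 over shNC) of each gene in the replication set and in 5 related lists, red for called higher, blue for called lower and grey for not called, with the median of each list as a bar and the middle 50% of all genes tested (-0.33 to 0.27) shaded. The median is 0.22 for the replication genes, 0.28 for the E2F and RB family and -0.17 for the G2 and mitosis genes.

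More genes of the G1 to S switch were called higher than lower, and more of those of G2 and mitosis lower than higher. Of 13 E2F and RB family genes, 8 were called higher and 2 lower (median log2 fold change 0.28). E2F1, an activator of replication genes, gave 1022 and 906 counts in shNC and 1578 and 1642 in shMETTL14 (0.75, edgeR adjusted p = 3.6e-10), while the pocket protein gene RBL2 was at -0.64 (edgeR adjusted p = 5.0e-10). Of 17 other S phase genes, 12 were called higher and 2 lower (median 0.23), with CCNE1 and CCNE2, the cyclins that drive S phase entry, at 1.46 and 1.20, SLBP, which binds histone mRNA, at 0.80 and DUT, which removes dUTP, at -0.49. For cyclin E1, which CCNE1 encodes, the paper reported a reduction after METTL14 knockdown and lists an antibody for western blot. The RNA here went the other way, and the difference was not tested. Of 30 G2 and mitosis genes, 1 was called higher (KIF23, 0.11) and 19 lower (median -0.17), among them TOP2A (-1.24), CENPF (-0.73) and HMMR (-0.72). Summed per kb, those 30 genes stood at 83.2% of control, and their part in the result for the replication genes was not tested.

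Markers of cell type moved as well. All 11 noradrenergic neuroblastoma markers were detected, and 8 were called lower (72.7%) and 2 higher (18.2%). Among all genes tested, 25.3% were called lower and 27.2% higher. Their log2 fold changes ran from -1.25 to 0.28, with a median of -0.22. At least 1.5-fold lower were 3 of the 11, against 11.4% of all genes tested. DBH, which makes noradrenaline, was at -0.79 and MYCN at 0.28. The summed level of the 11 markers per kb was 1848 to 1861 in the shNC libraries and 1942 to 1964 in the shMETTL14 libraries. That sum, at 105% of control although 8 markers were called lower, gives the most weight to the most abundant markers. Of 15 markers of other cell types, 7 passed the filter on low counts, 1 was called higher (COL1A2, 1.83) and 2 lower (EPCAM, -0.72, and COL1A1, -0.48), and KRT5 and SOX10 were at 0 in every library. The 15 summed to 86.0 and 86.1 CPM per kb in shNC and 85.7 and 90.3 in shMETTL14, and their part in the result was not tested.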

How the data were processed

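The authors deposited raw counts of reads per Ensembl gene for 2 shNC and 2 shMETTL14 libraries, sequenced as paired-end reads from total RNA with an mRNA library kit. The submitters' processing notes name HISAT2 2.1.0, StringTie 1.3.6, HTSeq 0.13.5, edgeR and GRCh38. The strand setting and the annotation release are not given in the sources used here, so where genes overlap on opposite strands their reads may be mixed. Lines that name no gene held 19.1% to 19.9% of all counts in a library and were left out.

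Genes were tested with edgeR 4.0.16 in R 4.3.3 (filterByExpr, min.count 10 and min.total.count 15, TMM scaling, quasi-likelihood F test, group as the only term), which left 16309 genes. A gene was called at a Benjamini-Hochberg adjusted p under 0.05, and a further count required a 1.5-fold change. CPM used TMM library sizes, and levels between genes were compared per kb of merged exon (GENCODE 29). The biological coefficient of variation was 3.45%. The fit was tested on simulated data with larger changes than most of those in the replication set, so that test does not cover the small ones. Promoter windows came from RefSeq.

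The members, the gene lists and the tests were chosen with earlier results of these data known. All members could be named, with METTL14 and, from each other list, up to 3 called genes with the largest increase and up to 3 with the largest decrease. Alternatives were RLE, upper quartile or library size scaling, no filter, at least 10 counts in every library, a replicate block, each library left out, and DESeq2 1.42.0, whose missing adjusted p stayed missing.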

Additional observations from a re-analysis of the deposited data

How the results depend on the processing

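Over the 50 replication genes, a count was taken as moved where it differed from the main count by more than 1.5 times. A median was taken as moved where it differed by at least the pooled SD between libraries (0.023). By these rules the number called lower moved under upper quartile scaling (10, against 6). The median log2 fold change, 0.22 in the main fit, moved to 0.18 without shMETTL14 replicate 2. It moved to 0.15 under upper quartile scaling and to 0.17 with library size alone. These scalings moved the median of all genes by -0.0676 and -0.0451, and upper quartile scaling gave 3550 genes higher and 4961 lower in place of 4438 and 4123. With each library left out in turn, 30 to 35 were called, 26 to 30 higher and 4 to 7 lower, 5 to 6 changed at least 1.5-fold, the median ran from 0.18 to 0.22, and METTL14 from -1.31 to -1.21. Of all genes, 42.5% to 44.0% were called in those fits, 22.8% to 23.6% higher and 19.6% to 20.8% lower, and 15.9% to 16.7% at 1.5-fold. A lone library was then assumed to vary like the rest.

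Across all 11 alternatives 27 genes were called each time, 23 higher and 4 lower. Of 550 gene values, 35 lost the call (9 genes), 8 gained it (5 genes) and 5 changed sign in 4 genes that were not called: ORC2 to -0.017 under upper quartile scaling, CDT1 to 0.0048 and POLD1 to 0.041 without shMETTL14 replicate 1, POLD1 to 0.0041 without shNC replicate 1, and ORC5 to 0.035 without shMETTL14 replicate 2 (ranges with 1 library left out: ORC5 -0.18 to 0.035, CDT1 -0.15 to 0.0048, POLD1 -0.075 to 0.041). The cause was not tested. Same-numbered libraries did not deviate together (Pearson -0.0018 over genes, which are not independent). That value cannot exclude a small shared effect, which counting noise could hide. With the replicate block 37 genes were called, 31 higher and 6 lower (54.7% of all genes, 28.3% higher and 26.4% lower). RFC4 was added (edgeR adjusted p = 0.0405), the median was 0.21 and METTL14 was at -1.26. Dividing counts by the longest coding transcript, an alternative chosen after seeing the data, left the summed MCM2 to MCM7 level at 117% of control. Without POLA2 and PRIM1, whose exons are shared most with other genes, 35 of 48 genes were called.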
